A study of Mus musculus with 4 samples.

Results

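Cells with transcripts of Meox1 and of at least 1 other paraxial mesoderm gene were examined in the EHF (early headfold) library. A cell was counted as a paraxial cell when it held at least 1 UMI (unique molecular identifier, 1 captured transcript) of Meox1 and at least 1 UMI in 1 or more of 5 partner genes, Tcf15, Foxc2, Pcdh8, Ripply2 and Aldh1a2. Of 3494 EHF cells, 128 met the rule, which is 3.66% of the cells (95% exact binomial interval 3.07 to 4.34). The series holds 11123 cells in all. EHF embryos were dissected at E7+14h and had received tamoxifen at E7+7h. The other libraries were MS-LS (E6+21h, tamoxifen at E6+5h) and OB-EB (E7+3h, tamoxifen at E6+21h). All embryos had the genotype TnEGP-CreERT2/+; R26Rtdtomato/R26Rtdtomato and came from dams given tamoxifen by oral gavage at 0.08 mg/bw. In these embryos the Cre recombinase is made under the control of the T locus, so that tamoxifen switches on tdTomato in cells that express T (Brachyury) and in their descendants. The EHF library was made from 4 pooled embryos, its cells were not assigned to embryos, and each stage is 1 library, so that no test between conditions was possible and all intervals cover counting error only.

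Paraxial mesoderm lies on either side of the neural tube and leaves the primitive streak as presomitic mesoderm, in which a Notch-driven clock and Wnt and FGF signals keep cells undifferentiated. At the anterior end of this tissue Mesp2 and Ripply genes set the segment borders, retinoic acid signalling is active, and cells become somites that express Meox1 and Tcf15. Meox1 encodes a homeodomain factor of somites, Tcf15 (paraxis) a basic helix-loop-helix factor needed for somites to become epithelial, and Foxc2 a forkhead factor. Pcdh8 (paraxial protocadherin) is a cell adhesion molecule, Ripply2 a corepressor that ends Tbx6 activity, and Aldh1a2 (Raldh2) the enzyme that makes retinoic acid.

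The paraxial cells held 799480 UMIs, with 1695 at the lowest, 5690 at the median and 21826 at the highest per cell. The median of the 3366 other EHF cells was 5574 UMIs, so the groups were of like depth. Cell barcodes shared between libraries numbered 18 for MS-LS and OB-EB, 12 for MS-LS and EHF and 14 for OB-EB and EHF. The paraxial cells were set against all other EHF cells and against groups of EHF cells without a Meox1 UMI. Presomitic cells (157) had Tbx6 and at least 1 of Dll1, Dll3, Msgn1 and Hes7. Anterior Tcf15 cells (62) had Tcf15 and at least 1 gene of a short set of cranial mesoderm genes that includes Alx1 and Tbx1. Cardiac cells (164) had at least 2 of Nkx2-5, Tbx5, Tbx20, Hand2 and Myl7. Trophoblast cells (429), with at least 3 genes of a trophoblast list, served as a background for free RNA. The comparisons share the same paraxial cells and are not independent of each other.

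The cells were chosen by the counts of Meox1 and the 5 partner genes, which are given first, as a description. Most paraxial cells entered through Aldh1a2. Meox1 gave 217 UMIs, with 79 cells holding 1 UMI, 26 holding 2, 12 holding 3, 7 holding 4, 2 holding 5 and 2 holding 6. Aldh1a2 was found in 102 of the 128 cells (79.7%), and 43 cells entered through it alone. Tcf15 was found in 62 cells (48.4%), 9 of them with no other partner gene. Foxc2 was found in 44 cells, Pcdh8 in 24 and Ripply2 in 17, and each was the only partner gene in 1 cell. A single partner gene was seen in 55 cells, 2 in 45 cells, 3 in 16 cells, 4 in 4 cells and all 5 in 8 cells. Tcf15 and Aldh1a2 occurred together in 40 cells, and Pcdh8 and Ripply2 in 11.

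**Figure D1:**
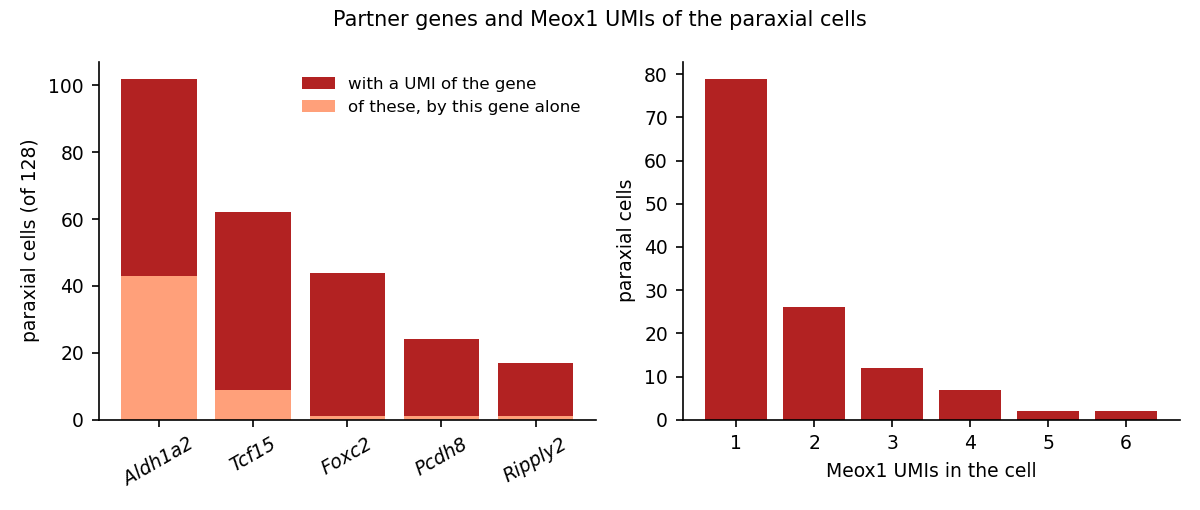
Left, number of the 128 paraxial cells with at least 1 UMI of each partner gene (dark bars) and number in which that gene was the only partner gene (pale bars). Right, number of paraxial cells by their UMIs of Meox1. Aldh1a2 was found in 102 cells, and 79 cells held a single Meox1 UMI.

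Members just inside the rule, with exactly 1 Meox1 UMI and exactly 1 partner gene, numbered 41. Just outside it lay 25 cells with Meox1 and no partner gene, every one of them with a single Meox1 UMI. Pcdh19 and Rasgrp3, which were among the leading genes of the paraxial cells, had 0 UMIs in these 25 cells. Hoxb1, another leading gene, was found in 28% of them, at 59.7 CPM (counts per 1000000 UMIs of the pooled cells). Its level was 221 CPM in the paraxial cells and 46.4 CPM in all other EHF cells. Ttr, an endoderm gene, stood at 567 CPM in the 25 cells against 47.5 CPM in the paraxial cells. A further 114 cells held at least 2 partner genes without Meox1. Their Pcdh19 level was 191 CPM, against 258 CPM in the paraxial cells. Meox1 was found in 2 of 429 trophoblast cells (0.466%, median 7299 UMIs), against 25 of 3366 other EHF cells (0.743%).

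Levels of the partner genes in the comparison groups are given as a description. Each paraxial cell had to hold at least 1 of these genes, so higher levels in the paraxial cells are no finding. Pooled Aldh1a2 stood at 404 CPM in the paraxial cells (361 to 451), 238 CPM in presomitic cells (208 to 271), 9.76 CPM in anterior Tcf15 cells and 7.55 CPM in cardiac cells. Tcf15 was at 245 CPM in paraxial cells, 14.4 CPM in presomitic cells and, by their rule, 425 CPM in anterior Tcf15 cells. Foxc2 was at 78.8 CPM in paraxial and 80.5 CPM in anterior Tcf15 cells, and at 14.4 CPM in presomitic cells. Pcdh8 was at 48.8 CPM in paraxial cells and 7.21 CPM in presomitic cells. Ripply2, at 46.3 CPM in paraxial cells, had 0 UMIs in presomitic cells and 1 UMI in anterior Tcf15 cells.

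Markers of formed somites were at or near 0, beside the genes of the rule. Tbx18, Pax7, Pax9 and Dmrt2, which mark somite compartments, had 0 UMIs in the 128 cells. Meox2 and Ripply1 had 1 UMI each, Pax3 4 and Eya1 6. Mesp2, which sets the next segment border, had 12 UMIs at 15 CPM (7.76 to 26.2). Uncx, Pax1, Nkx3-2 and Myf5 are not listed in the table used here. The cells are therefore called paraxial cells and not somite cells.

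Against all other EHF cells, the paraxial cells had higher levels of segmentation, Notch and presomitic genes and lower levels of endoderm genes. Summed endoderm genes were also low in presomitic, anterior Tcf15 and cardiac cells, as given below. A gene was counted as higher or lower when its pooled CPM differed by at least 2-fold. Genes with at least 10 UMIs expected in the paraxial cells were compared and are called tested, although no statistical test was run. Of 6753 genes tested, 124 were higher (1.84%) and 516 lower (7.64%). With the counting interval also apart from 1, the counts were 124 (1.84%) and 471 (6.97%). Genes of the rule were left out of these counts. The 15 genes with the largest ratio were Pcdh19, Foxc1, Dll3, Tbx6, Pdlim4, Rasgrp3, Prrx2, Dll1, Ifitm1, Notch1, Tenm4, Crabp1, Car3, Plxna2 and Hoxb1.

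Pcdh19, a protocadherin that works with N-cadherin, led with 258 CPM (224 to 295) in 66.4% of paraxial cells against 25 CPM in 8.32% of the other cells, a log2 ratio of 3.37 (3.12 to 3.60). In trophoblast cells, a background for free RNA with a deeper median of 7299 UMIs, 0.932% of cells held Pcdh19. Foxc1, a forkhead factor that acts with Foxc2 in paraxial mesoderm, stood at 91.3 CPM against 11.1 CPM (log2 ratio 3.04). Pdlim4, which encodes a LIM domain protein bound to actin, was at 271 CPM against 42.7 CPM. Rasgrp3, an activator of Ras, was at 129 CPM against 20.3 CPM. Prrx2, a homeobox gene of mesenchyme, reached 123 CPM against 19.7 CPM and was found in 40.6% of paraxial cells and 8.47% of the others. Ifitm1, a surface protein of gastrulating mesoderm, was found in 99.2% of paraxial cells and 52.2% of the others, at 1751 CPM and 330 CPM.

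**Figure D2:**
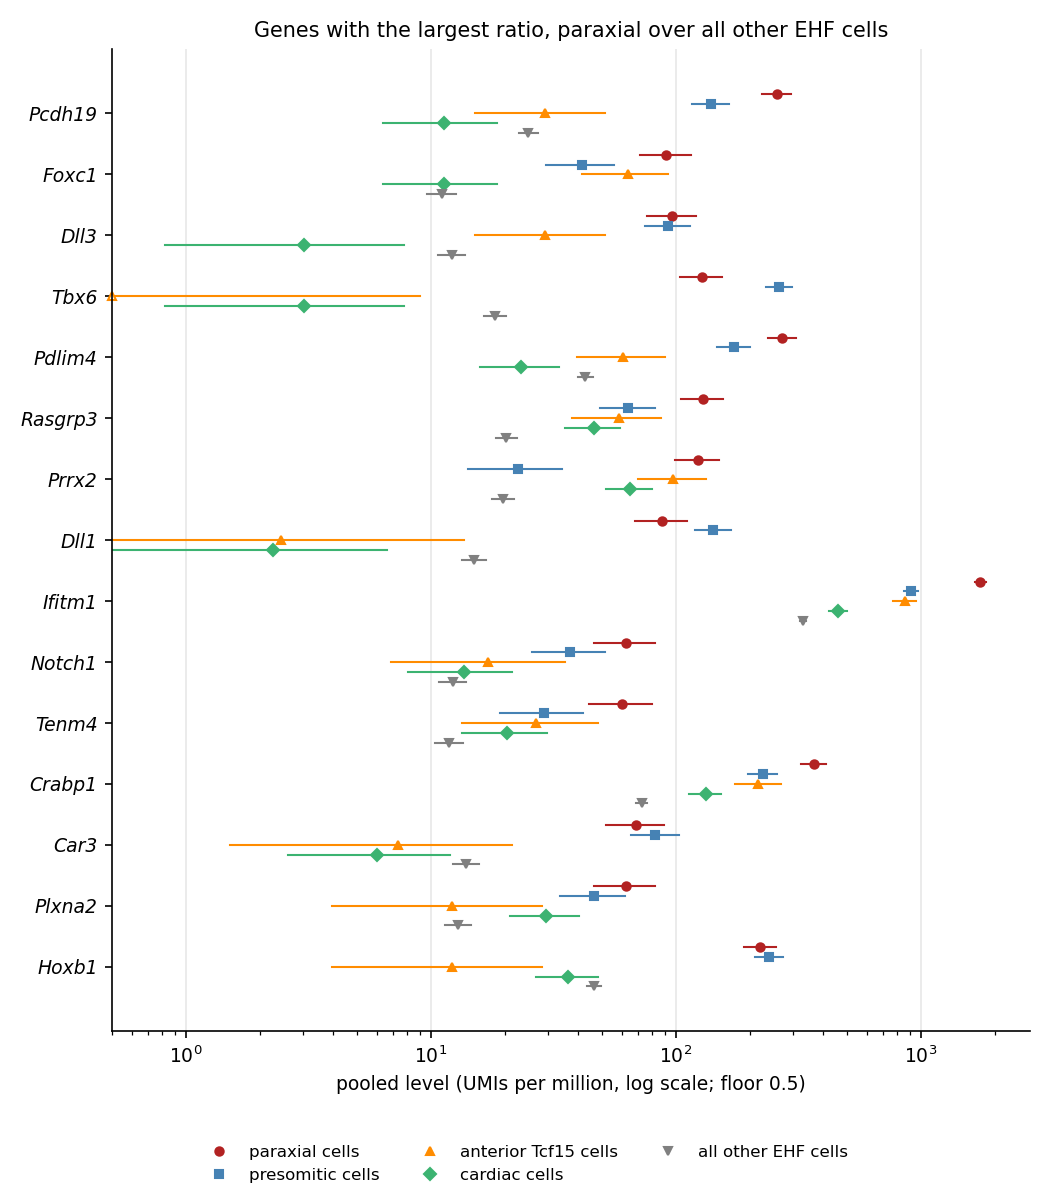
Pooled level of the 15 leading genes (CPM, log axis) in 5 groups of EHF cells. Bars are 95% exact Poisson intervals, open symbols mark 0 UMIs, and values under 0.5 are drawn at 0.5. Paraxial cells lay above all other EHF cells for every gene shown, by the rule that chose the genes. Presomitic cells lay above paraxial cells for Car3, for Hoxb1 with overlapping intervals, and for Tbx6 and Dll1, which are in the presomitic rule and so no finding.

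Among Notch and clock genes, 4 of 6 tested (12 listed) were higher and none lower, with a median log2 ratio of 2.08 beside -0.04 over all genes tested. Dll1 and Dll3, ligands of the Notch pathway, stood at 87.6 and 96.3 CPM against 15 and 12.2 CPM. Notch1, the receptor, was at 62.5 CPM against 12.3 CPM, and Hes7, the repressor at the core of the segmentation clock, at 61.3 CPM against 17.4 CPM. Hes1 was at 41.3 CPM in paraxial cells and 60.2 CPM in the others, and Notch2 at 17.5 and 12.4 CPM, both within 2-fold. Lfng, Nrarp, Hey1, Hey2, Heyl and Jag1 gave 10, 9, 7, 2, 1 and 7 UMIs and were too sparse to compare.

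The list of somite formation held 19 genes, of which 15 were measured and 4 had enough UMIs. These 4, Foxc1, Mesp1, Epha4 and Fst, were higher, with a median log2 ratio of 2.10 beside -0.04 over all genes. Epha4, a receptor that acts at segment borders, stood at 173 CPM (145 to 204) against 37.9 CPM. Mesp1, a factor of early mesoderm, was at 81.3 CPM against 20.3 CPM. Fst, which encodes the activin antagonist follistatin, was at 275 CPM against 119 CPM.

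Of 12 presomitic and caudal genes tested (19 listed), 6 were higher and 1 lower, with a median log2 ratio of 0.96, beside 1.84% of all genes higher and 7.64% lower and a median of -0.04. Tbx6, the T-box factor that directs cells to paraxial fate, was at 128 CPM (104 to 155) against 18.2 CPM. Lef1 and Axin2, a mediator and a target of Wnt signalling, stood at 219 and 38.8 CPM against 49.3 and 17.8 CPM. Rspo3, which strengthens Wnt signals, was at 256 CPM against 65.2 CPM. Sp5 and Wnt5a were also higher. Nkx1-2, a gene of caudal epiblast, was lower at 22.5 CPM against 59.7 CPM. T stood at 138 CPM against 87.2 CPM, Cdx1 at 283 CPM against 164 CPM and Cdx2 at 80.1 CPM against 118 CPM, each within 2-fold.

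Genes of retinoic acid handling were mostly higher or within 2-fold. Crabp1, which binds retinoic acid in the cytoplasm, was at 365 CPM (325 to 410) against 72.6 CPM. Rdh10, which makes the substrate of Aldh1a2, was at 43.8 CPM against 17 CPM. Cyp26a1, the enzyme that degrades retinoic acid, was lower, at 10.0 CPM (8 UMIs) against 32.3 CPM. Crabp2 and the receptors Rara and Rarg were within 2-fold, and Rarb gave 11 UMIs.

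Matrix and growth factor genes were mixed. Of 14 adhesion and matrix genes tested, 3 were higher and 5 lower, with a median log2 ratio of -0.53, beside 1.84% of all genes higher and 7.64% lower and a median of -0.04. The higher ones were Pcdh19, Cdh2 (N-cadherin, 63.8 against 26.5 CPM) and Fn1 (fibronectin, 444 against 175 CPM), and the lower ones Cdh1 (E-cadherin, 17.5 against 65.0 CPM), Epcam, Col4a1, Col4a2 and Sparc. Of 17 FGF, PDGF, BMP and Wnt response genes tested, Fgfr1 (189 against 78.4 CPM), Pdgfra (83.8 against 28.0 CPM) and Frzb (158 against 41.2 CPM) were higher and 7 were lower, with a median log2 ratio of -0.47. Id1, Id2, Msx1 and Msx2, which respond to BMP signals, were among the lower ones, with Id2 at 52.5 CPM against 400 CPM, while Id3 was within 2-fold at 254 CPM against 387 CPM. Smad6 and Smad7 were too sparse to compare. Id1, Id2 and Id3 were within 2-fold of presomitic and of anterior Tcf15 cells, while Msx1 was lower than in presomitic cells. Against cardiac cells, Id1, Id2, Msx1 and Msx2 were lower and Id3 was within 2-fold.

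The 15 genes with the smallest ratio were Lgals2, Cldn7, Ctsh, S100g, Amn, Rbp4, Krt19, Ttr, Spink1, Mt2, Prss8, Cubn, Apoa4, Fabp3 and Apoa1, many of which are known from visceral endoderm. Lgals2 gave 1 UMI in the paraxial cells, a log2 ratio of -6.02 (-11.32 to -3.54). Rbp4, a retinol carrier of the blood, was at 23.8 CPM against 658 CPM. Apoa4 had 0 UMIs (0 to 4.61 CPM). With a set floor of 3 UMIs put in place of 0, its log2 ratio was -4.27. Transcripts of the most abundant endoderm genes were still seen in many paraxial cells, with Spink1 in 35.2% and Ttr in 25.8% of them, against 42.9% and 34.3% of the other cells.

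Summed markers of blood, endoderm, trophoblast, endothelium and neural tissue were lower in paraxial cells than in the other cells, and those of intermediate mesoderm were higher. The 5 blood genes summed to 27 UMIs, 33.8 CPM against 302 CPM in the other cells. The 6 endoderm genes summed to 101 CPM against 2229 CPM, with Sox17, Foxa2 and Afp at 0. The 6 trophoblast genes summed to 32.5 CPM against 418 CPM, and the 5 endothelial genes to 16 UMIs, against 73.6 CPM in the other cells. The notochord list, Shh, Noto, Foxj1 and Nodal, had 0 UMIs, and the 5 neural genes summed to 9 UMIs, 11.3 CPM against 59.0 CPM. In presomitic, anterior Tcf15 and cardiac cells in turn, the blood genes summed to 24.7, 34.2 and 35.5 CPM. The trophoblast genes summed to 19.6, 34.2 and 34 CPM there, and the endoderm genes to 222, 154 and 119 CPM. The endothelial genes summed to 17.5, 95.2 and 166 CPM, and the neural genes to 35, 4.88 and 10.6 CPM. Low blood, trophoblast and endoderm sums were thus shared with these groups and are no trait of the paraxial cells alone. The 4 intermediate mesoderm genes measured summed to 32.5 CPM in paraxial cells against 12.5 CPM in all other EHF cells. Lhx1 gave 23 of the 26 UMIs in paraxial cells. All 4 were too sparse to compare with all other EHF cells. Their sum was 20.6 CPM in presomitic, 22.0 CPM in anterior Tcf15 and 19.6 CPM in cardiac cells, and Lhx1 was within 2-fold of each of these groups. The part of the cell types of these lists in the results was not tested. The 14 lateral plate and heart genes summed to 230 CPM against 357 CPM. Of 8 of them tested, Smarcd3, a chromatin factor of cardiac progenitors, was higher (48.8 against 18.7 CPM), Hand1 and Tbx20 were lower, and Foxf1, Gata4, Gata6, Myl7 and Bmp4 were within 2-fold. Nkx2-5 and Gata5 had 0 UMIs. Of 12 cell cycle genes tested, 0 passed 2-fold, beside 1.84% of all genes higher and 7.64% lower, a share too small for a count of 0 in 12 to set the list apart.

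Promoters were read for the leading genes from RefSeq on GRCm38.p6, from 250 bases before to 50 after each annotated start. Of 15 leading genes, 14 matched. The letters GGTGTGA (a T-box half-site) were found in the window of 1 gene, Rasgrp3, and TAATTA (a homeodomain core) in that of 1, Tbx6. All promoters hold these letters in 3.98% and 5.29% of windows (32851 windows, both strands). CANNTG (E-box) was found for 6 of the 14 genes and in 72.3% of all windows. Ripply2, a gene of the rule, also held the T-box letters. These 3 windows are shown since they alone held GGTGTGA or TAATTA among the promoters read. They lie at chr7:126781233-126781532, chr9:87015287-87015586 and chr17:75465288-75465587, all on the plus strand, and capitals mark the letters found, which in Ripply2 are on the opposite strand. A match is a description of the letters and not a binding site.
Tbx6: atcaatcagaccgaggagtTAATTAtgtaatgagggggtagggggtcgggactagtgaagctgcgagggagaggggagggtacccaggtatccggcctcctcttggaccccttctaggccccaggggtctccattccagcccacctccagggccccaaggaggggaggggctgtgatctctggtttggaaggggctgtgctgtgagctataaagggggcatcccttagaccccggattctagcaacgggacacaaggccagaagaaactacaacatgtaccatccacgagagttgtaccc
Ripply2: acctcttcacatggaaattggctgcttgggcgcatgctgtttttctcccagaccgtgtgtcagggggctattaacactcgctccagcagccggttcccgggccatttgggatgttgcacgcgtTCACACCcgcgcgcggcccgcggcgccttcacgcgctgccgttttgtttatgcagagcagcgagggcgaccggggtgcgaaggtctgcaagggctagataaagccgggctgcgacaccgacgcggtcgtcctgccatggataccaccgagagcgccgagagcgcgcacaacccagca
Rasgrp3 (the second of its listed starts): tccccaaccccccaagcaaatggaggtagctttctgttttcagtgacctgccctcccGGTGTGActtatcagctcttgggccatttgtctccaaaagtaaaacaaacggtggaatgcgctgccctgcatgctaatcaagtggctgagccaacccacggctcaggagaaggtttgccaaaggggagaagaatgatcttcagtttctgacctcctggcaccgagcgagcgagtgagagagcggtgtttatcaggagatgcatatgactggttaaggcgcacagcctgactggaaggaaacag

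Presomitic cells were within 2-fold of the paraxial cells for Pcdh19 and Hoxb1 and held more of most caudal genes. Against these 157 cells, 131 of 6499 genes tested were higher in the paraxial cells (2.02%) and 195 lower (3%), or 104 (1.6%) and 155 (2.38%) with the counting interval apart from 1. Of 15 presomitic and caudal genes tested, 10 were lower and none higher, with a median log2 ratio of -1.58 beside 0.00 over all genes. Wnt3a, the Wnt ligand of the streak and tailbud, gave 2 UMIs in paraxial cells (2.50 CPM) against 42.2 CPM, a log2 ratio of -4.08 (-7.17 to -2.13). T was at 138 CPM against 452 CPM and Nkx1-2 at 22.5 CPM against 120 CPM. Fgf8, Fgf4 and Fgf17, ligands that keep the tailbud undifferentiated, were lower, with 24 UMIs of Fgf8 against 87 in the presomitic cells. Cdx1 (283 against 700 CPM) and Cdx2 (80.1 against 201 CPM) were lower, while Lef1 (219 against 187 CPM), Axin2, Wnt5a, Rspo3 and Sp5 were within 2-fold. Tbx6, which is in the rule of the presomitic cells and so no finding, was at 128 CPM against 264 CPM.

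The 8 genes with the largest ratio over presomitic cells were Cer1, Klf10, Ptgds, Sfrp1, Ppp1r1a, Irx3, Foxp4 and Gata6. The pooled levels join unlike paraxial cells. In the clusters described below, Cer1 gave 3 UMIs in the 51 paraxial cells of cluster 9 and 13 in the 28 of cluster 22. Klf10 gave 1 and 15 UMIs there, and Irx3 0 and 24. Ptgds and Foxp4 were within 2-fold between these cells. Ppp1r1a, Cer1 and Sfrp1 were also among the leading genes of cluster 15, which held 50 of the 62 anterior Tcf15 cells. Ppp1r1a, an inhibitor of protein phosphatase, stood at 195 CPM (166 to 228) in 48.4% of paraxial cells against 31.9 CPM in 16.6% of presomitic cells. Cer1, a secreted antagonist of Nodal and BMP that is known from anterior presomitic mesoderm, gave 29 UMIs against 1 (log2 ratio 5.14, 2.55 to 10.49). Irx3, a homeobox gene, was at 37.5 CPM against 6.18 CPM. Prrx2 was at 123 CPM against 22.6 CPM, Foxc1 at 91.3 CPM against 41.2 CPM and Rdh10 at 43.8 CPM against 14.4 CPM. Of 7 lateral plate and heart genes tested, Foxf1, Gata6, Smarcd3 and Myl7 were higher than in presomitic cells and none was lower. The 8 genes with the smallest ratio were Wnt3a, Igfbp3, Hoxaas3, Mixl1, Hoxb8, Wnt5b, Sp8 and Rxrg.

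Anterior Tcf15 cells, with genes of cranial and pharyngeal mesoderm, held less of the caudal genes than the paraxial cells. Against these 62 cells, 420 of 6432 genes tested were higher in the paraxial cells (6.53%) and 197 lower (3.06%). With the counting interval also apart from 1, the counts were 204 (3.17%) and 129 (2.01%). Of 11 presomitic and caudal genes tested, 10 were higher, with a median log2 ratio of 2.23 beside 0.01 over all genes. Tbx6 had 0 UMIs in anterior Tcf15 cells, and its log2 ratio was 4.12 with the floor of 3 UMIs put in place of 0. T, Cdx1 and Rspo3 were at 138, 283 and 256 CPM against 7.32, 12.2 and 9.76 CPM. Dll1 was at 87.6 CPM against 1 UMI in the 62 cells, and Gal, a neuropeptide gene of the caudal mesoderm, at 76.3 CPM against 1 UMI.

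The 8 genes with the smallest ratio over anterior Tcf15 cells were Cyp26a1, Igfbp5, Shisa2, Mdfi, Hsd11b2, Myl7, Myrf and Sfrp1. Cyp26a1 was at 10.0 CPM in paraxial cells against 181 CPM (142 to 227), a log2 ratio of -4.17 (-5.44 to -3.12), while Rdh10 was higher in paraxial cells, at 43.8 CPM against 7.32 CPM. Sfrp1, an inhibitor of Wnt signals, was at 33.8 CPM against 193 CPM in anterior Tcf15 cells and 5.15 CPM in presomitic cells. The pooled paraxial level thus lay between those of the other groups. Myl7, a cardiac myosin light chain, followed the same order with 47.5, 298 and 20.6 CPM. These pooled levels join unlike paraxial cells and do not show that single cells were intermediate. In the clusters described below, Sfrp1 was at 10.1 CPM in the paraxial cells of cluster 9 and 67.9 CPM in those of cluster 22. Myl7 was at 16.9 CPM in the former and 73.6 CPM in the latter. Prrx2 was shared, at 123 CPM in paraxial and 97.6 CPM in anterior Tcf15 cells, and so was Foxc1, at 91.3 and 63.5 CPM. Otx2 and Twist1 were lower in paraxial cells, at 16.3 and 12.5 CPM against 61 and 46.4 CPM.

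**Figure D3:**
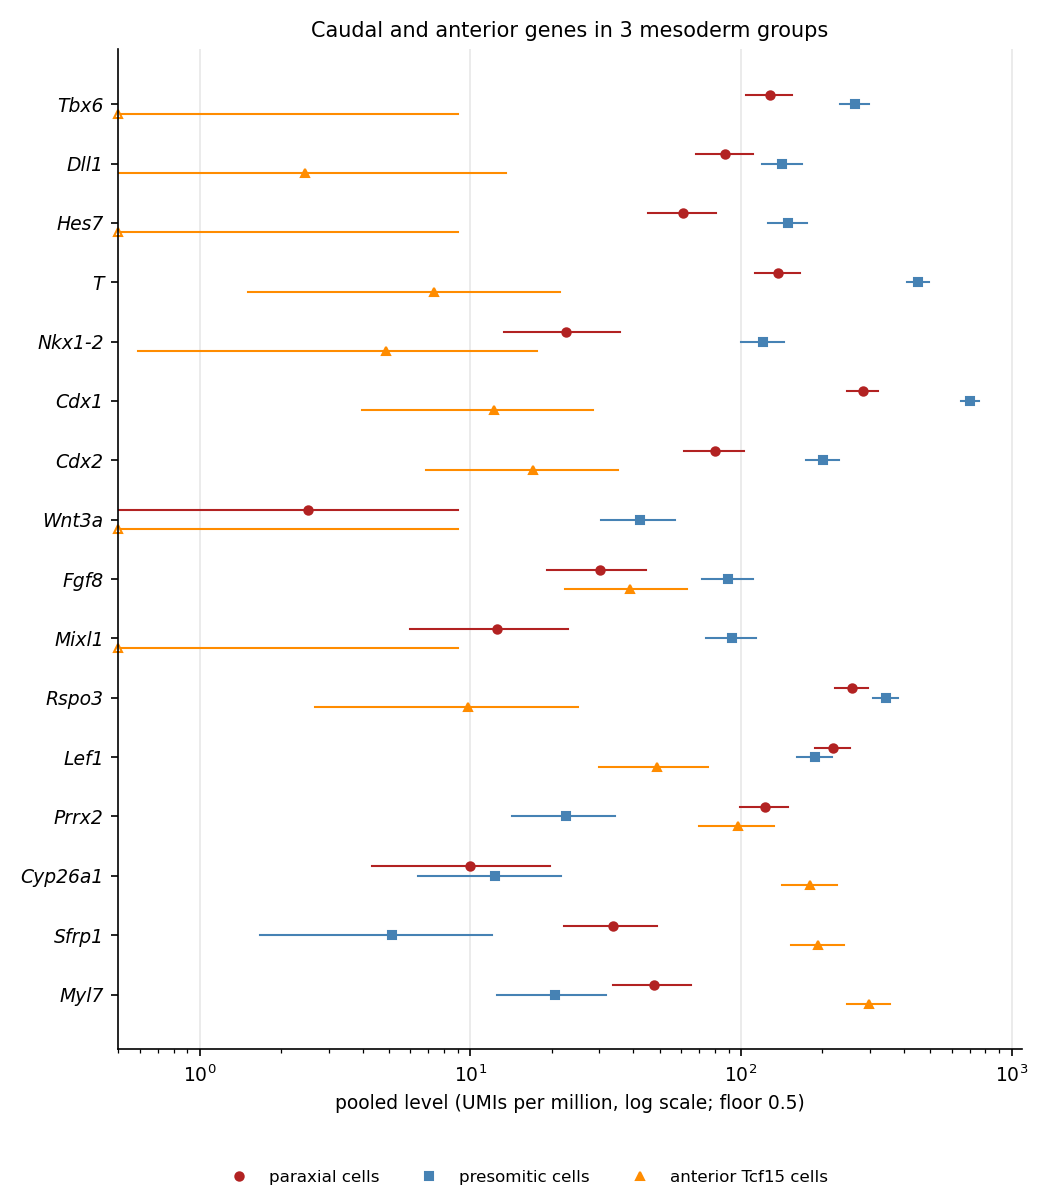
Pooled level of caudal and anterior genes (CPM, log axis) in paraxial, presomitic and anterior Tcf15 cells. Bars are 95% exact Poisson intervals, open symbols mark 0 UMIs, and values under 0.5 are drawn at 0.5. The pooled paraxial level lay between those of the other groups for T, Cdx1, Cdx2, Sfrp1 and Myl7. For example, T was at 138 CPM against 452 and 7.32 CPM. The pooled level joins unlike cells, with Cdx1 at 419 CPM in the paraxial cells of cluster 9 and 5.66 CPM in those of cluster 22.

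Against cardiac cells, 232 of 6708 genes tested were higher in the paraxial cells (3.46%) and 442 lower (6.59%), or 219 (3.26%) and 380 (5.66%) with the counting interval apart from 1. Hand1, which is expressed in lateral plate and heart, was at 18.8 CPM against 300 CPM, Foxf1 at 25 CPM against 115 CPM and Bmp4 at 16 UMIs against 157. Fst (275 against 21.9 CPM) and Crabp2 (119 against 21.2 CPM) were higher in paraxial cells. The heart genes of the cardiac rule are no finding here.

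Hox genes, whose order on the chromosome follows their order along the body, were seen in the paraxial cells mostly from paralogue groups 1 and 2. Of 31 Hox genes measured, most were too sparse to compare with all other cells. Hoxb1 was at 221 CPM (190 to 257) against 46.4 CPM and was found in 67.2% of paraxial cells. Hoxb2 was at 114 CPM against 34.7 CPM. Hoxa2, too sparse to test there, was at 48.8 CPM. Anterior Tcf15 cells held 12.2 CPM of Hoxb1 and 17.1 CPM of Hoxb2.

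Against presomitic cells, Hoxb1, Hoxa2 and Hoxb2 were within 2-fold, as were Hoxa3 and Hoxb4. Hoxb1 stood at 221 and 240 CPM in paraxial and presomitic cells and Hoxb2 at 114 and 113 CPM. Hoxa5 gave 6 UMIs (7.50 CPM) against 29.9 CPM and Hoxb8 gave 3 UMIs (3.75 CPM) against 27.8 CPM, which were the 2 of 8 Hox genes tested that were lower. Hoxb5 had 0 UMIs in paraxial cells and 15.4 CPM in presomitic cells. Hoxa7, Hoxa9, Hoxc5, Hoxc6, Hoxc8 and Hoxc9 were among the Hox genes with 0 UMIs in paraxial cells.

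**Figure D4:**
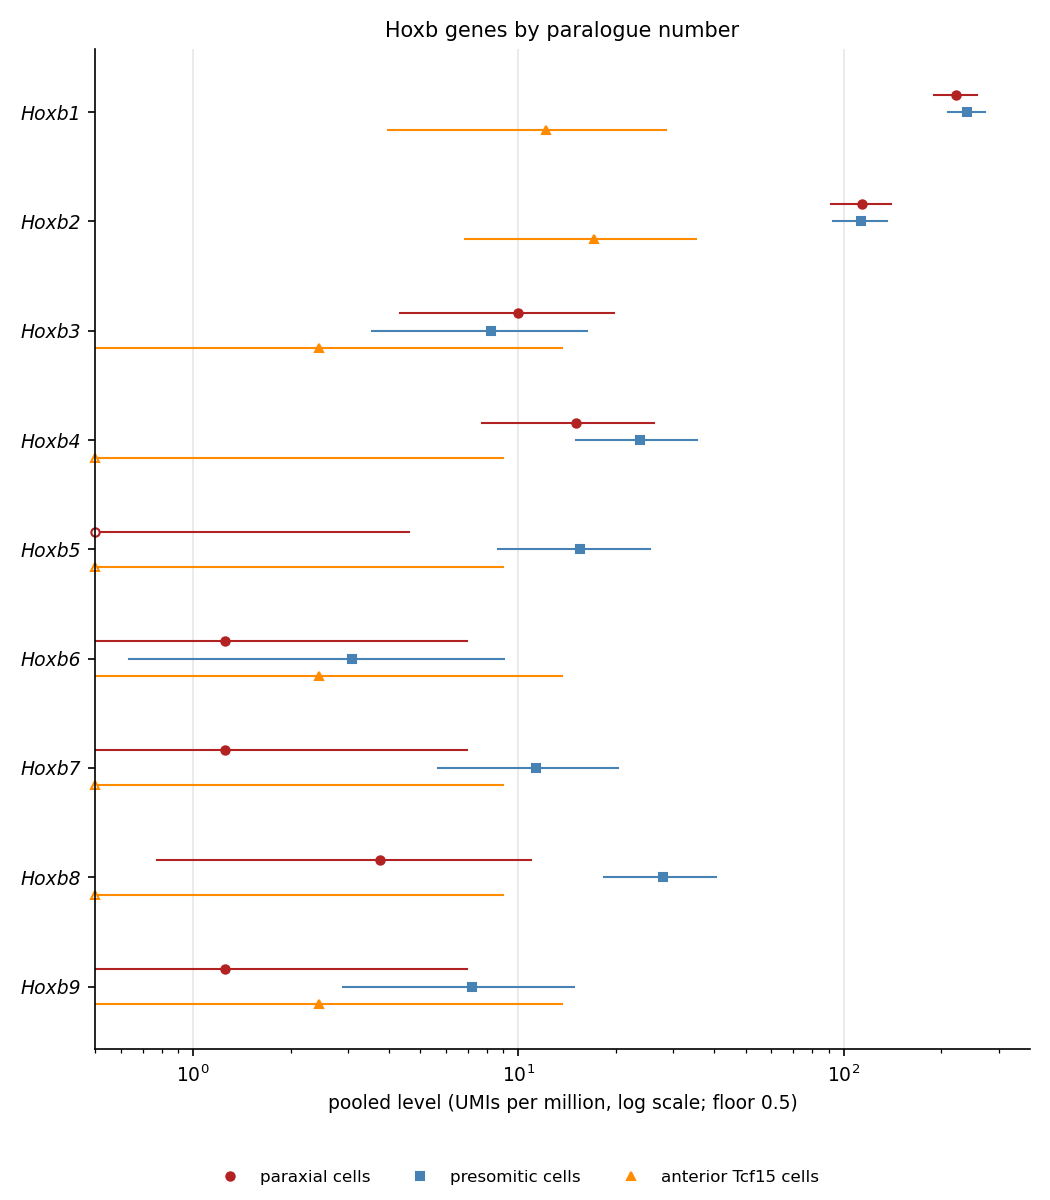
Pooled level of Hoxb genes (CPM, log axis), ordered by paralogue number, in paraxial, presomitic and anterior Tcf15 cells. Bars are 95% exact Poisson intervals, open symbols mark 0 UMIs, and values under 0.5 are drawn at 0.5. Hoxb1 and Hoxb2 were within 2-fold in paraxial and presomitic cells, Hoxb8 was lower in paraxial cells (3.75 against 27.8 CPM), and Hoxb5 had 0 UMIs there.

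tdTomato transcripts were found in a larger share of paraxial and presomitic cells than of the other groups. After each cell was thinned to 2000 UMIs, so that depth does not set the share, 28 of 126 paraxial cells held a tdTomato UMI (22.2%, 15.3 to 30.5), as did 22.2% of presomitic cells (15.9 to 29.6). The share was 3.28% of anterior Tcf15 cells, 0.621% of cardiac cells, 4.48% of all other EHF cells and 0.237% of trophoblast cells, which stand for free RNA. Thinning left out 2 paraxial and 307 other cells that were shallower. Unthinned shares were 46.1% of paraxial cells, 48.4% of presomitic cells, 10.2% of all other EHF cells and 1.40% of trophoblast cells. Pooled tdTomato stood at 104 CPM (82.7 to 129) in paraxial cells and 24.4 CPM in all other EHF cells.

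**Figure D5:**
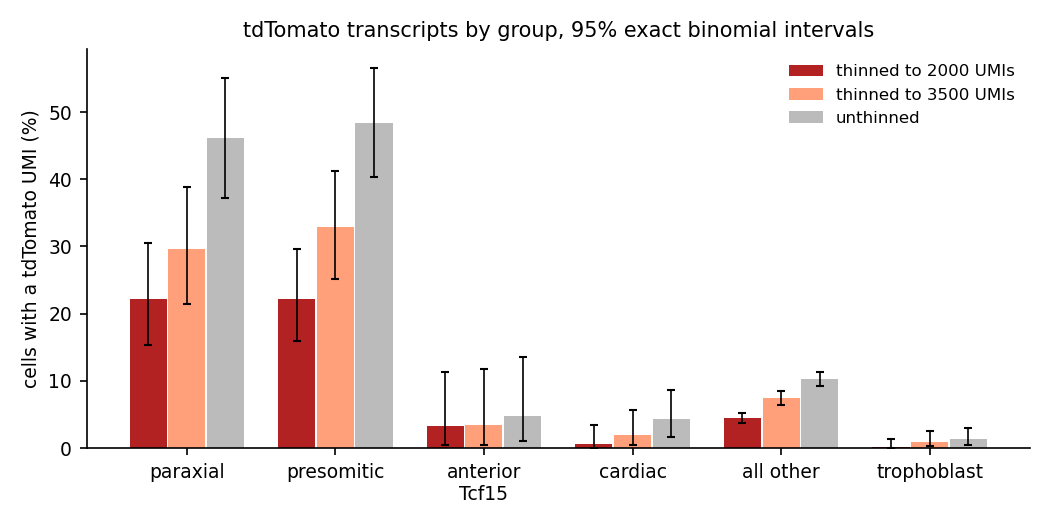
Share of cells with at least 1 tdTomato UMI in 6 groups of EHF cells, after thinning to 2000 or 3500 UMIs and unthinned. Bars show percent of cells with 95% exact binomial intervals. Paraxial cells had 22.2% and presomitic cells 22.2% at 2000 UMIs, against 0.237% of trophoblast cells.

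The paraxial cells were not uniform. The 62 cells with Tcf15 were set against the 66 without, and 450 of 6673 genes tested were higher (6.74%) and 334 lower (5.01%). With the counting interval apart from 1, 100 and 77 genes were left. Of 12 presomitic and caudal genes tested, T, Cdx1, Rspo3 and Sp5 were lower with Tcf15 and 8 were within 2-fold, with a median log2 ratio of -0.62. Hes7 was at 23.3 CPM against 105 CPM, T at 74.5 CPM against 211 CPM and Cdx1 at 165 CPM against 419 CPM. Gal gave 9 UMIs against 52, a log2 ratio of -2.75 (-3.95 to -1.71). tdTomato was also lower, at 65.2 CPM against 149 CPM. Prrx2 (175 against 62.2 CPM), Ppp1r1a (293 against 81.1 CPM) and Irx3 (58.2 against 13.5 CPM) were higher with Tcf15. Stra6, the retinol receptor, gave 22 UMIs against 2, a log2 ratio of 3.24 (1.22 to 6.38). The median depth was 6174 UMIs with Tcf15 and 5131 without, and its part in these differences was not tested.

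The 30 cells with Pcdh8 or Ripply2, genes of the anterior end of presomitic mesoderm, were set against the 98 with neither. Of 4180 genes tested, 96 were higher (2.3%) and 212 lower (5.07%). With the counting interval apart from 1, 69 and 50 genes were left. Of 10 presomitic and caudal genes tested, Cdx1, Cdx2 and Sp5 were lower and 7, among them T, Tbx6 and Rspo3, were within 2-fold. Their median log2 ratio was -0.45. Of 5 Notch and clock genes tested, Notch1 was higher and Dll1, Dll3, Hes1 and Hes7 were within 2-fold. Mesp1 was at 151 CPM against 61.2 CPM, Pcdh19 at 430 CPM against 208 CPM and Notch1 at 112 CPM against 48.3 CPM. Mesp2 gave 9 of its 12 UMIs in these 30 cells. Cdx2 gave 1 UMI against 63, a log2 ratio of -4.18 (-9.51 to -1.65), and Cdx1 was at 145 CPM against 322 CPM. Gata6 gave 1 UMI against 28.

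The 43 cells that entered through Aldh1a2 alone were set against the other 85. Of 4869 genes tested, 128 were higher (2.63%) and 265 lower (5.44%). With the counting interval apart from 1, 61 and 74 genes were left. The median depth was 4727 UMIs in the 43 cells and 5992 in the others, and its part in the differences was not tested. Of 11 presomitic and caudal genes tested, T, Cdx1, Cdx2 and Sp5 were higher and 7, among them Tbx6, Rspo3 and Lef1, were within 2-fold, with a median log2 ratio of 0.68. Hes7 was at 133 CPM against 33.2 CPM, T at 239 CPM against 97.7 CPM and Cdx2 at 155 CPM against 50.6 CPM. Cited1, which encodes a transcriptional coregulator, was at 570 CPM (129 UMIs) against 174 CPM, a log2 ratio of 1.71 (1.32 to 2.10). Ppp1r1a (39.8 against 256 CPM) and Prrx2 (39.8 against 155 CPM) were lower. Pcdh19 stood at 194 CPM against 283 CPM. Tbx6 was at 172 CPM against 110 CPM. The 3 splits share the same 128 cells and overlap in part. The 43 cells all lack Tcf15 by definition, so this split and the Tcf15 split are not separate results.

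When all EHF cells were clustered with the rule genes and reporter features held out, the paraxial cells fell into 15 of 37 clusters, with 79 in the 2 fullest and 104 in the 4 fullest. Cluster 9 held 51 of them among 125 cells, and its leading genes included Aldh1a2, Tbx6, Pcdh19, Meox1, Pdlim4, Dll1, Car3 and Rspo3. It also held 34 of the 157 presomitic cells. Cluster 22 held 28 among 83 cells, with Tcf15, Prrx2, Meox1, Foxc2 and Crabp1 among its leading genes. Cluster 18 held 18 cells, led by Pcdh19, Mesp1 and Lhx1, and cluster 15 held 7, led by Alx1, Ppp1r1a and Tcf15. Cluster 15 also held 50 of the 62 anterior Tcf15 cells, and cluster 22 held 8. Cluster 19 held 6 paraxial cells and had a median of 1717 UMIs. Cluster 25, led by Gal, Dll1 and Tbx6, held 6 paraxial and 46 presomitic cells. The other 12 paraxial cells lay in 9 clusters with under 5 each. Of these clusters, 1 paraxial cell each lay in cluster 0 (led by Elf5), cluster 1 (Cited4, Gata1) and cluster 16 (Mef2c, Myl7). Clusters are given by number and leading genes and were not named.

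Within the paraxial cells, the 51 of cluster 9 and the 28 of cluster 22 are described without a test, since the clusters were drawn on these genes. Of 5794 genes tested, 609 were higher in cluster 9 (10.5%) and 421 lower (7.27%). Cdx1 was at 419 CPM in cluster 9 against 5.66 CPM (1 UMI), Rspo3 at 433 CPM against 17 CPM and Tbx6 at 243 CPM against 22.6 CPM. Hes7 and Dll1 had 0 UMIs in the 28 cells and 26 and 49 UMIs in the 51. Aldh1a2 was at 693 CPM against 170 CPM and Pcdh19 at 355 CPM against 158 CPM. In the other direction, Prrx2 was at 57.5 CPM in cluster 9 against 306 CPM, Tcf15 at 152 CPM against 543 CPM and Id3 at 115 CPM against 368 CPM. Irx3 and Gata6 had 0 UMIs in the 51 cells of cluster 9 and 24 and 15 UMIs in the 28 of cluster 22.

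The boundaries of the clusters moved with the random seed, while the direction stayed the same for the 8 genes followed (Dll1, Tbx6, Cdx1, Rspo3, Hes7, Tcf15, Prrx2 and Mesp1). All seeds used the same cells and counts, so the like direction describes the partition and is no separate evidence. Over 10 seeds, chosen after the data were seen, the 2 fullest clusters held from 76 to 87 of the 128 paraxial cells. Between these clusters, on the log2 scale with 10 CPM added, the difference of Cdx1 ran from 2.91 to 4.83, that of Tbx6 from 2.15 to 3.19, that of Tcf15 from -1.77 to -1.13 and that of Prrx2 from -2.51 to -2.03.

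In the MS-LS library, 7 of 3635 cells held a Meox1 UMI and 2 met the rule, in a table that does not list Aldh1a2. Tcf15 was found in 141 of its cells. The OB-EB table does not list Meox1, so the rule was not applied there, and Aldh1a2 was found in 5 of its 3994 cells. The tables differ in depth and in the genes listed and were not compared further.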

How the data were processed

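Mouse embryos at EHF, OB-EB and MS-LS were dissociated and profiled with the Chromium 3′ assay, 1 library a stage. The authors aligned reads with Cell Ranger 3.0.2 to GRCm38 with tdTomato vector sequence added, filtered cells on genes, UMIs and mitochondrial share, and deposited raw UMI counts per gene and cell, which were used unnormalized. The submitters' processing notes also name R 3.6.1 and Seurat 3. The paired EHF tables hold the same counts in all 65128160 places and were used as 1 library. It had 20376539 UMIs, a median of 5584 per cell, and 3494 cells.

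UMIs were pooled over the cells of a group and given as CPM with exact Poisson intervals. Ratios carry the exact conditional binomial interval and shares the Clopper-Pearson interval, at 95%. These cover counting error only. A gene was tested for 2-fold when at least 10 UMIs were expected in the paraxial cells (5 within them), and a group at 0 was set to a floor of 3 UMIs. The pooled comparison was tested on simulated counts. Some unchanged genes pass 2-fold by counting error, more so where groups are small. Counts with the interval apart from 1 are therefore printed for the 4 comparisons with other EHF cells. They are also printed for the split by Tcf15, the split by Pcdh8 or Ripply2 and the Aldh1a2 split. Clusters were made in scanpy 1.11.5 with 2000 variable genes, 50 principal components (rounded to 3 decimals so that the result repeats, which moved some cells between clusters) and resolution 4.5. Doublets were not removed. Scrublet's own threshold marked 16 cells, and the highest 5% of scores (175 cells, 10 of them paraxial) were left out as an alternative.

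The members, the lists and the comparison rules were chosen with earlier results of these data known. Named were the genes of the lists, all Hox genes, the 15 largest and 15 smallest ratios over other EHF cells and 8 each over presomitic and anterior Tcf15 cells, among genes found in at least 10% of the higher group and leaving out mitochondrial, ribosomal protein, vector and rule genes and Xist, Tsix and a set of Y-linked genes (other X-linked genes such as Pcdh19 were kept). The split by Pcdh8 or Ripply2, the cluster comparison and the genes named in the splits were chosen after their values were seen. Promoters came from RefSeq on GRCm38.p6. There is no replicate, so no p-value is given. Some genes of the lists and rules are not reported here.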

Additional observations from a re-analysis of the deposited data

How the results depend on the processing

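Counts of genes past 2-fold moved with the depth filter and the size of the cell group, and are given as higher and lower against all other EHF, presomitic, anterior Tcf15 and cardiac cells in turn. They were 221 and 880, 334 and 417, 832 and 464, and 433 and 749 with at least 5 expected UMIs, 57 and 237, 34 and 80, 163 and 79, and 104 and 201 with at least 20, 5692 and 1366, 1196 and 1055, 1157 and 924, and 1354 and 1317 with no filter and 43 and 297, 31 and 52, 175 and 50, and 88 and 207 at 3-fold. With at least 2 Meox1 UMIs, 49 cells were left and the counts were 57 and 251, 53 and 116, 148 and 128, and 87 and 248. With the rule applied after thinning to 2000 UMIs, 53 cells were left and the counts were 37 and 246, 27 and 126, 107 and 127, and 66 and 263. With at least 2 partner genes, 73 cells were left and 77, 81, 240 and 143 genes were higher. Without Aldh1a2 as a partner gene, 85 cells were left. With paraxial cells holding 2 blood, endoderm or trophoblast genes left out, 77 genes were higher than in presomitic cells. Requiring an interval apart from 1 left 204 higher and 129 lower against anterior Tcf15 cells. The unthinned tdTomato share was 46.1%. The smaller cell groups and higher filters test fewer genes by construction. The 62 ratios followed under the alternatives were the ranked largest and smallest ones only, not those of the lists or the Hox genes as a whole. Of their 868 values, 829 lay inside the interval of the reported ratio, 39 lay outside it with the same sign and 0 changed sign. These genes were picked for extreme ratios in the same cells, so a change of sign was unlikely from the start. Without replicates, the spread between embryos cannot be told apart from counting error, and genes under 10 expected UMIs could not be compared at this depth. No paired analysis was possible because each stage is 1 library and no result comes from a test.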
